A study of Mus musculus with 40 samples.

Results

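The antioxidant and NRF2 target genes described here are 47 genes of peroxide, thiol and glutathione defence. These were chosen by name, with earlier results of these data known. They comprise the transcription factor NRF2 (Nfe2l2) and its inhibitor KEAP1, the superoxide dismutases, catalase and glutathione peroxidases, the peroxiredoxins, the thioredoxin and glutaredoxin system, the enzymes of glutathione synthesis and use, methionine sulfoxide reductases and sources of NADPH. All 47 symbols were found, in 48 of the 55401 rows of the count table, because Nnt has 2 gene identifiers. RNA came from the renal cortex of male C57BL/6J mice, one library per animal. Heterozygous Ins2-Akita mice, which carry a mutant insulin gene and become diabetic (Akita), were compared with wild type littermates (WT). From 6 to 22 weeks of age mice were gavaged daily with MitoGamide (10 mg/kg), a mitochondria-targeted dicarbonyl scavenger, or with its vehicle of ethanol in water. Further mice received the mitochondria-targeted antioxidant MitoQ or its vehicle, labelled water, for which the labels give no dose or route. The 2 genotypes and 4 treatments gave 8 groups of 5 mice. Every group received a drug or a vehicle, and no untreated mice were among the controls.

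NRF2 is held in the cytosol by KEAP1, which passes it to degradation. When electrophiles or peroxides modify cysteines of KEAP1, NRF2 accumulates, enters the nucleus, pairs with small MAF proteins and binds antioxidant response elements in front of genes for quinone reduction, glutathione synthesis and conjugation. NRF2 is regulated mainly as a protein, so its own transcript need not follow its activity. In the kidney, proximal tubule cells carry much of the load of mitochondrial oxidants and of xenobiotic conjugation, and they secrete the plasma glutathione peroxidase GPX3.

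The libraries held 9106654 to 24321424 estimated counts. All 48 rows passed the filter of a mean of at least 10 counts in every comparison. Libraries differed in the share of counts on nuclear protein-coding genes, which was 62.6 to 65.7% in WT and 55.2 to 62.4% in Akita mice on ethanol, so that these groups did not overlap. Among mice on water or MitoQ, 10 of the libraries lay below 55.2%, the lowest value of the ethanol and MitoGamide libraries (replicates 2, 3 and 5 of Akita on water, 2 and 4 of Akita on MitoQ, 2, 3 and 4 of WT on water, 1 and 3 of WT on MitoQ). The lowest share, 24.4%, was in replicate 3 of WT mice on MitoQ. For Gsta2, Gsta3, Gsta4, Nqo1, Hmox1, Nfe2l2, Gclm, Sod1, Gpx4 and Pgd the comparisons of Akita with WT mice on water and on MitoQ are also given without these libraries. Replicate 5 of Akita mice on MitoGamide stood apart from its group in several members and was also left out. This library was unlike its group beyond these members. It had 35.4% of its counts on mitochondrial genes, against 28.0 to 30.5% in the other replicates, and some high marker sums, given below. None of the fixed markers of nephron segments was at 0 in all libraries. Hepatocyte markers, which the kidney should hold little of, summed to 33.0 to 513 CPM (counts scaled to a common library total, with TMM factors over the 40 libraries) in WT mice on water, with the highest value in replicate 1, and to at most 89.8 CPM in the other groups.

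Per kilobase of exon, the peroxide-removing enzymes led the list. Gpx3 had a median of 5175 CPM per kb over the 40 libraries (range 2284 to 8873). It was followed by Gpx1 at 493, Cat (catalase) at 218, Prdx5 at 168, Gpx4 at 161 and Prdx1 at 139 CPM per kb. Among the conjugating enzymes, Gstm1 (112) and Gsta2 (111) were the most abundant per kb, and their ranges of 67.2 to 231 and 28.5 to 337 overlapped over most of their length. The regulators were low, with Nfe2l2 at 16.6 and Keap1 at 5.03 CPM per kb. The cystine transporter gene Slc7a11 was lowest, at 0.170 CPM per kb.

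**Figure D1:**
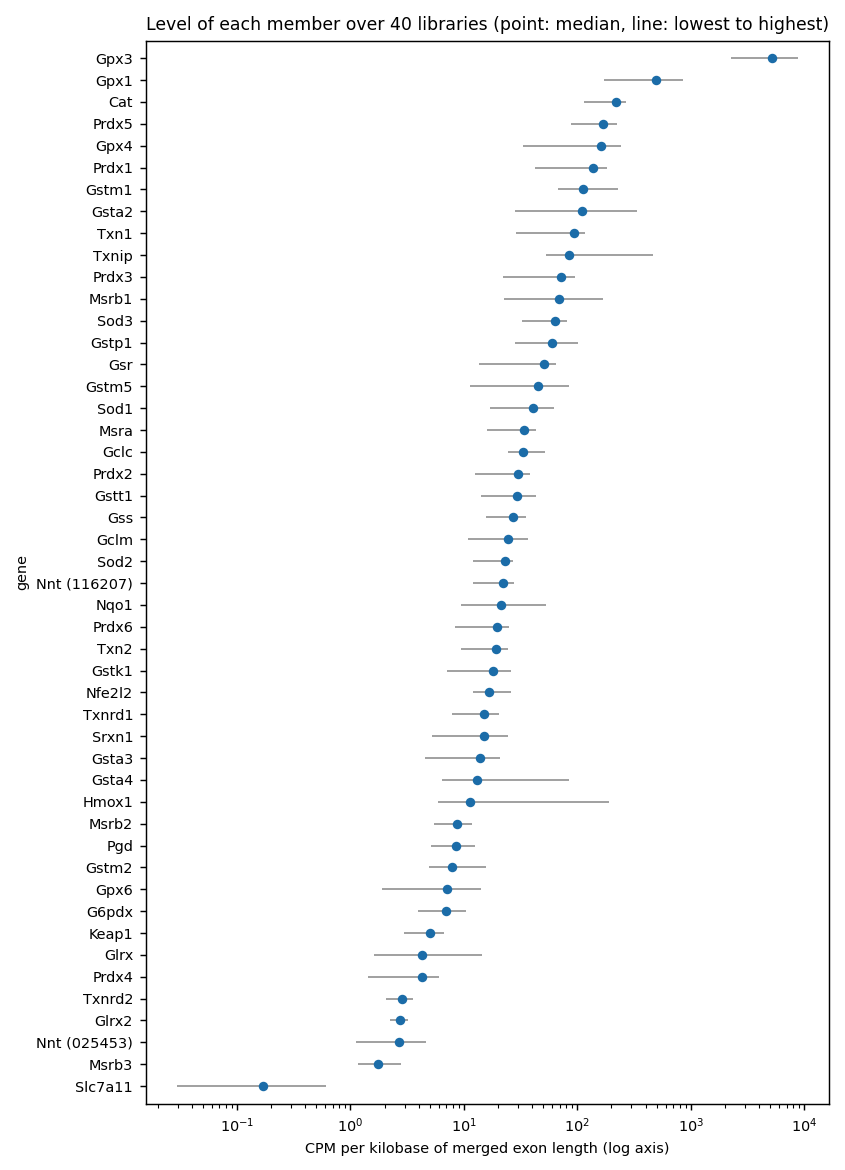
Level of each member in CPM per kilobase of merged exon length on a log axis, with the median over 40 libraries as a point and the lowest to the highest library as a line. Gpx3 (median 5175) lies far to the right of Gpx1 (493), and Slc7a11 (0.170) lies far to the left.

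Start-site windows of 3 members that passed on ethanol and on MitoGamide, 2 higher and 1 lower, are shown so that the changes below can be read beside the sequence around their RefSeq start sites. The windows are from RefSeq on GRCm38.p6, written 5′ to 3′ on the gene's strand, with 250 bases before and 50 bases from the start site. Of the 47 members, 39 were in the table, with 50 windows. Sod3, Gclc, Prdx6, Hmox1, Gsta4, Msra, Nnt and Gsr were not matched. Capitals mark TGACNNNGC, the core letters of the antioxidant response element, searched on both strands (on the opposite strand its reverse complement is in capitals). It was found in 11 of the 50 windows (22%), against 12.4% of all 32851 windows. By gene, 11 of 39 members (28.2%) held it, against 14% of 27025 genes. A match describes letters and not a bound site, and many known elements lie further from the start site than this window reaches.

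The windows of Gsta2 (chr9:78347096-78347395, minus strand) and Nqo1 (chr8:107403156-107403455, minus strand), which were higher in Akita mice, hold no match, and that of Gclm (chr3:122245307-122245606, plus strand), which fell, holds 1. The RefSeq start of Gsta2 lies inside the gene as the annotation of the count table places it, so this window is not the sequence before that annotated start.
Gsta2 promoter: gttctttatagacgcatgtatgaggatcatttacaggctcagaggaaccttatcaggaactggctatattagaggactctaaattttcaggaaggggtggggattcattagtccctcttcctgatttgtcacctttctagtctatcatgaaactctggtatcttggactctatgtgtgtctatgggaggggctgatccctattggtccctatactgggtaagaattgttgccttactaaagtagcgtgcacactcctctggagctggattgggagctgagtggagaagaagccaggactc
Nqo1 promoter: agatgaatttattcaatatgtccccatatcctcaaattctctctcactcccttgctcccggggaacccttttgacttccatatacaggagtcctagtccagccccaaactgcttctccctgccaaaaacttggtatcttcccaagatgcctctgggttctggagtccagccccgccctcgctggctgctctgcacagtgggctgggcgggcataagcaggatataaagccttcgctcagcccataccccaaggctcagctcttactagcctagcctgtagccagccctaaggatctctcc
Gclm promoter: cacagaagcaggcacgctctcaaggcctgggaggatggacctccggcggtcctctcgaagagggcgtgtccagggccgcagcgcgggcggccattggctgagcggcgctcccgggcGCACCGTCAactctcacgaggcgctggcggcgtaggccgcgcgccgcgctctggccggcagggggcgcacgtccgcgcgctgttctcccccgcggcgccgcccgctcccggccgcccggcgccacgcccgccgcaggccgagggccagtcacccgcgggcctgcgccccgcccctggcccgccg

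The other matches in members that passed a test in any diabetes comparison are shown with up to 15 bases on either side. Matches were also found in G6pdx and Txnrd1, which passed in none.
Gsta3 window: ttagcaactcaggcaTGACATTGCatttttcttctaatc
Gstm5 window: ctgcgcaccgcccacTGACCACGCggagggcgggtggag
Pgd window: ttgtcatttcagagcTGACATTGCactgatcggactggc
Srxn1 window: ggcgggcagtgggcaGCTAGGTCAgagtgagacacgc
Nfe2l2 window: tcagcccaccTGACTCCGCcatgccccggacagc
Sod1 window: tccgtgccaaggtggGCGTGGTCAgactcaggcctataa
Prdx1 window: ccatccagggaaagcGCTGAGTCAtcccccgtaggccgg
Msrb2 window: ggaaacccgttggtgGCAGCGTCAtg
The Gsta3, Gstm5, Pgd, Srxn1 and Nfe2l2 transcripts were higher in Akita mice where they passed the test, and Sod1, Prdx1 and Msrb2 were lower. Pgd has another window, closer to its start in the annotation of the count table, which holds no match.

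The first comparison asked which of these genes differed between diabetic and WT mice on the ethanol vehicle. Of the 9 glutathione S-transferases 5 were higher in Akita mice, as was Nqo1, whereas Sod1, Gclm and Hmox1 were lower. Of the 48 rows, 10 were higher and 5 lower with an adjusted p under 0.05 in edgeR's quasi-likelihood test, beside 8.18% of all 17747 genes tested that were higher and 8.22% that were lower. In both directions together, 31.2% of the rows were called, against 16.4% of all genes, with a median log2 fold change of 0.02 in the rows beside -0.00 over all genes. In the MitoGamide arm, 13 rows were higher and 1 was lower in Akita than in WT mice, beside 7.71% and 6.60% of all genes, with a median of 0.20 (0.14 without replicate 5 of the Akita mice, where 15 rows were called). Leaving out 1 library at a time gave 6 to 15 called rows there. The count was 6 without WT replicate 2 or 3 (beside 7.44% and 8.70% of all genes). In the water arm 1 row was higher and none lower, with backgrounds of 0.186% and 0.366%, and in the MitoQ arm 1 was higher and none lower, with 0.265% and 0.292%. The 4 diabetes comparisons share no library. When all 40 libraries were fitted together, 3 rows (Gsta2, Nqo1 and Gstm1) were called in the ethanol comparison (6.25%, near the 4.75% of all genes) and 7 in the MitoGamide comparison (14.6%, near the 11.3% of all genes).

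**Figure D2:**
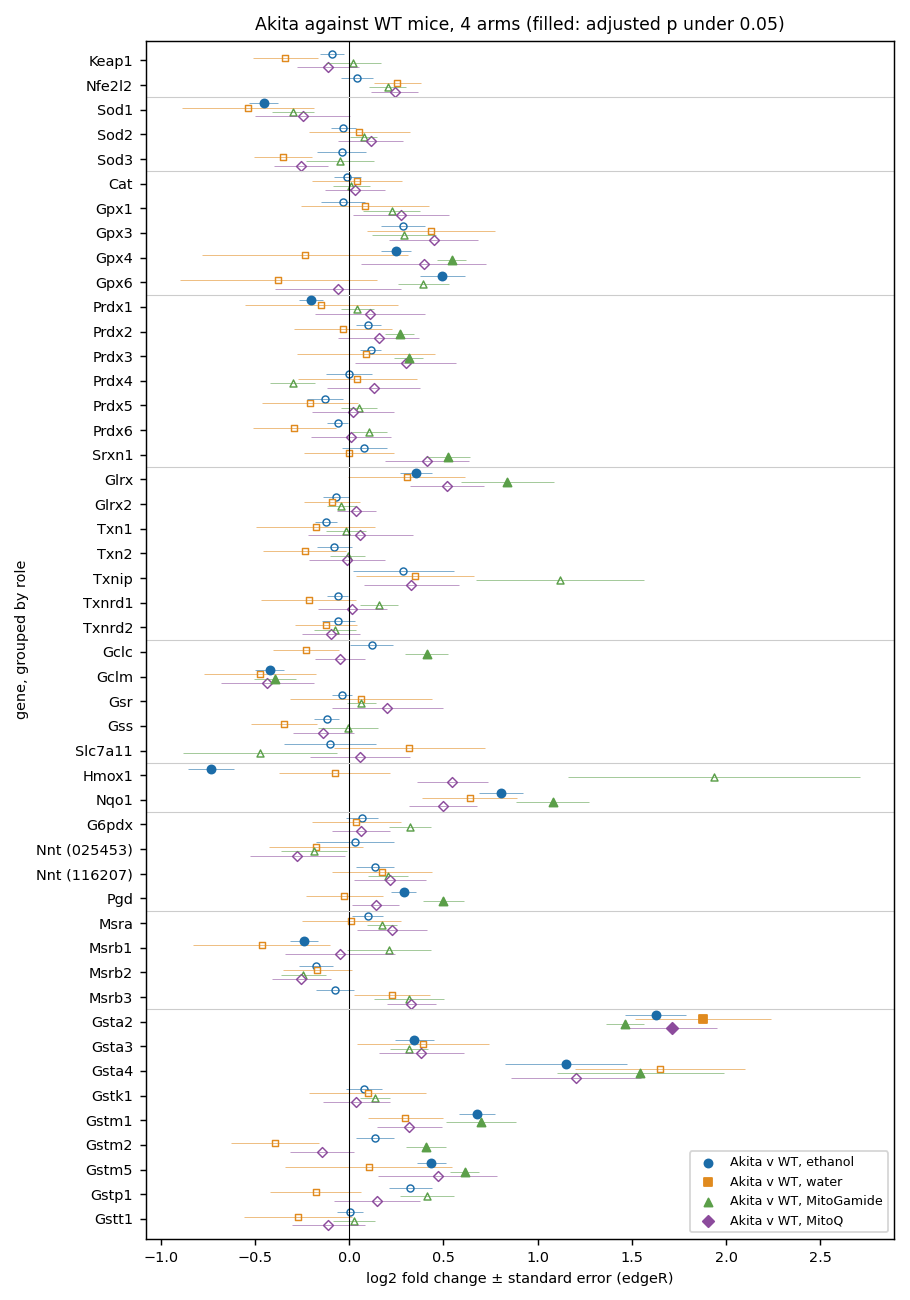
Log2 fold change of each member row between Akita and WT mice (x axis, with standard error from edgeR) in the ethanol, water, MitoGamide and MitoQ arms, grouped by role. Filled symbols passed an adjusted p under 0.05. Gsta2 is filled in all 4 arms, between 1.46 and 1.88, the only filled member in the water and MitoQ arms, where many bars are wide.

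Other features of the tissue moved with genotype in the same libraries. Proximal tubule markers summed to 10799.6 to 14163 CPM in Akita mice and 13753 to 16914 CPM in WT littermates on ethanol, and 3 of the 11 markers were lower and 1 higher in this comparison. Markers of tubular injury summed to 536 to 943 against 266 to 440.3 CPM, without overlap. Of this list 1 of 5 tested markers was higher on ethanol, Spp1, which made up nearly all of the sum (median 388 CPM over the 40 libraries), while Havcr1 (log2 fold change -0.31), Vcam1 (-0.28) and Sox9 (-0.08) did not pass. Lcn2, the injury marker lipocalin 2, at a median of 0.578 CPM, had a log2 fold change of 0.90 on ethanol (adjusted p = 0.1587) and was higher over all arms (1.46, adjusted p = 0.0001641). Markers of the distal convoluted tubule (2 of 4 higher), collecting duct (2 of 7) and podocytes (4 of 6) were also called, and 2 of 8 markers of macrophages and leukocytes were lower. Of the other lists, 1 of 5 thick ascending limb markers was lower and 1 of 6 fibroblast and smooth muscle markers was higher. The endothelium and hepatocyte lists (6 tested in each) each had 1 higher and 1 lower. The distal convoluted tubule sums did not overlap on ethanol, at 1223 to 1415 CPM (Akita) against 671 to 1190 CPM (WT). In whole cortex, fewer cells of a type and less RNA per cell cannot be told apart. On MitoGamide the sums of Akita and WT mice did not overlap for the proximal tubule (10499.6 to 12903 against 14413 to 16019 CPM), tubular injury (576 to 1527 against 291 to 417 CPM), distal convoluted tubule (1134 to 2425 against 896 to 1049.9 CPM) or collecting duct (255 to 401 against 188 to 245 CPM). The share of counts on mitochondrial genes there was 28.0 to 35.4% in Akita and 24.6 to 27.8% in WT mice, also without overlap, and the coding share was 55.5 to 58.0% and 57.3 to 62.0%. On water and on MitoQ, injury markers summed to 384 to 1022 and 376 to 812 CPM in Akita mice, above the 176 to 371 and 205 to 319 CPM of WT mice, and markers of macrophages and leukocytes to 94.9 to 129 and 90.9 to 129 CPM, below the 142 to 174 and 144 to 188 CPM of WT mice, without overlap. The part of cell composition and of the coding share in the changes below was not tested.

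Glutathione S-transferases, which join glutathione to electrophiles, held the largest changes that passed the test. Of 9 family members, 5 were higher and none lower in the ethanol arm, and 5 were higher and none lower in the MitoGamide arm, beside 8.18% and 7.71% of all genes that were higher in each. Gsta2 (ENSMUSG00000057933.10, chr9:78331018-78355788), an alpha-class enzyme that also reduces lipid hydroperoxides, was at 291, 319, 347, 270.1 and 221 CPM in Akita mice on ethanol. In WT mice it was at 76.6, 115, 78.7, 76.8 and 127 CPM. The lowest Akita library was thus well above the highest WT library, and the means were 289 ± 48.1 and 94.8 ± 24.2 CPM (SD, n = 5; log2 fold change 1.63 ± 0.16, adjusted p = 4.103e-05, where ± after a fold change is its standard error). With MitoGamide the transcript was at 296, 333, 276, 270.0 and 396 CPM in Akita mice and 119.8, 118, 107, 121 and 116 CPM in WT mice (log2 fold change 1.46 ± 0.10, adjusted p = 1.682e-05). On water the values were 304, 159.8, 134, 385 and 197 CPM in Akita mice and 45.7, 77.5, 33.6, 64.0 and 101 CPM in WT mice (log2 fold change 1.88 ± 0.36, adjusted p = 0.04482). On MitoQ they were 255, 137, 143, 293 and 205 CPM (Akita) against 51.1, 84.2, 61.4, 72.3 and 46.8 CPM (WT) (log2 fold change 1.71 ± 0.24, adjusted p = 0.007402), and without the low-coding libraries the log2 fold change was 1.57 (adjusted p = 0.028). The Akita and WT values did not overlap within any arm, nor across arms, since the lowest of the 20 Akita libraries (134 CPM) exceeded the highest of the 20 WT libraries (127 CPM). This held for 0.236% of all genes tested over the 40 libraries. Its call on water was the weakest. That call was lost under the RLE scaling, with replicate number as a block and in 8 of 10 leave-one-out fits, which each drop 1 library (adjusted p up to 0.139). With the low-coding libraries left out the log2 fold change on water was 2.21 (adjusted p = 0.02895), from 2 Akita and 2 WT libraries, among them WT replicate 1 with the high hepatocyte sum.

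Gsta4 (ENSMUSG00000032348.6, chr9:78182774-78209349), which clears the lipid peroxidation product 4-hydroxynonenal, was also called higher on ethanol and on MitoGamide, with far more spread. It was at 22.6, 27.0, 63.1, 16.6 and 18.6 CPM in Akita mice and 11.7, 19.0, 12.2, 10.1 and 13.6 CPM in WT littermates on ethanol. Replicate 3 of the Akita mice was far above the others, and the groups overlapped (log2 fold change 1.15 ± 0.32, adjusted p = 0.02729), with the call lost in 4 of 10 leave-one-out fits (each of WT replicates 1, 3, 4 and 5, adjusted p up to 0.0627). Without replicate 3 of the Akita mice the log2 fold change was 0.69 and still passed. On MitoGamide it was at 19.3, 27.3, 32.2, 17.2 and 107 CPM in Akita mice and 11.4, 11.7, 11.9, 15.1 and 19.6 CPM in WT mice (log2 fold change 1.55 ± 0.44, adjusted p = 0.03684). Without replicate 5 of the Akita mice, the log2 fold change was 0.82 (adjusted p = 0.01756), and the call was lost in 6 of 10 leave-one-out fits (adjusted p up to 0.0895). On water the Akita values spread from 13.4 to 89.1 CPM, against 8.14 to 16.6 CPM in WT mice (log2 fold change 1.65, adjusted p = 0.1952), and without the low-coding libraries the difference was 2.17 (adjusted p = 0.02047), from the same 2 Akita and 2 WT libraries in a subset chosen after the data were seen. On MitoQ the ranges were 13.0 to 59.3 CPM (Akita) against 9.94 to 14.7 CPM (WT) (1.20, adjusted p = 0.1899), and the value without those libraries was 0.51 (adjusted p = 0.4641).

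The mu-class enzymes had smaller fold changes. Gstm1 (ENSMUSG00000058135.12, chr3:108012255-108017973), a general conjugating enzyme, was at 207, 214, 263, 212 and 214 CPM in Akita mice and 157, 157, 134, 113 and 141 CPM in WT littermates on ethanol. All Akita libraries were above all WT libraries (log2 fold change 0.68 ± 0.10, adjusted p = 0.0004406). On MitoGamide the values were 164, 319.6, 257, 339.8 and 235 CPM (Akita) against 221, 165, 145, 161 and 139 CPM (WT), and the groups overlapped (log2 fold change 0.70 ± 0.19, adjusted p = 0.02891), with the call lost in 7 of 10 leave-one-out fits (adjusted p up to 0.0704) and with replicate number as a block. Gstm5 was at 86.5, 88.7, 66.5, 73.9 and 73.8 CPM in Akita mice and 63.9, 57.2, 58.3, 56.2 and 56.0 CPM in WT littermates on ethanol, without overlap (log2 fold change 0.44 ± 0.08, adjusted p = 0.002068). It also did not overlap on MitoGamide, at 87.0 to 107 against 59.8 to 70.7 CPM (log2 fold change 0.61 ± 0.08, adjusted p = 0.0007482). An antisense gene, 4933431E20Rik, lies over Gstm5 with a mean of 351 counts beside 944, and although the library kit keeps the strand, the strand setting of the counting is not given in the sources used here. Gstm2 was called on MitoGamide, at 14.1, 17.9, 17.4, 17.4 and 21.3 CPM in Akita mice and 12.6, 12.8, 13.9, 14.1 and 14.5 CPM in WT mice (log2 fold change 0.41 ± 0.11, adjusted p = 0.02613). That call was lost in 6 of 10 leave-one-out fits (adjusted p up to 0.0647). Its log2 fold change was 0.14 (adjusted p = 0.3929) on ethanol, and of the other sign on water (-0.39) and on MitoQ (-0.14), none of them called. On water and on MitoQ, Gstm1 was at 0.30 and 0.32 and Gstm5 at 0.10 and 0.47, also not called. Gsta3 was at 66.1 to 84.7 CPM in Akita mice and 50.3 to 69.8 CPM in WT littermates on ethanol (log2 fold change 0.35 ± 0.10, adjusted p = 0.03517), a call lost in 6 of 10 leave-one-out fits (adjusted p up to 0.0797). Its log2 fold change was close to this on MitoGamide, at 0.32 (adjusted p = 0.05271), on water, at 0.39 (adjusted p = 0.9999), and on MitoQ, at 0.38 (adjusted p = 0.7274), but passed in none of them. Without the low-coding libraries the values of Gsta3 were 0.41 (adjusted p = 0.2215) on water and 0.16 (adjusted p = 0.9109) on MitoQ. Gstp1 (0.32, adjusted p = 0.07052), the mitochondrial and peroxisomal Gstk1 (0.08, adjusted p = 0.6253) and Gstt1 (0.00, adjusted p = 0.9808) were not called on ethanol, although Gstp1 passed in DESeq2 there (0.32, adjusted p = 0.04373). On MitoGamide Gstp1 was at 0.41 (adjusted p = 0.07655), and at 0.51 (adjusted p = 0.01125), which passed, without replicate 5 of the Akita mice. Of near copies that could share reads with this family, the most abundant were Gstm4 and Gstm7 with means of 92.0 and 58.4 counts, which is not low beside the 217 of Gstm2, so the values of Gstm2 are uncertain.

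Nqo1 (ENSMUSG00000003849.8, chr8:107388225-107403206), which reduces quinones by 2 electrons and is among the transcripts most used to read NRF2 activity, was higher in Akita mice. It was at 56.9, 45.8, 67.8, 61.1 and 46.97 CPM in Akita mice and 28.2, 36.0, 30.8, 28.0 and 37.6 CPM in WT littermates on ethanol. The lowest Akita library was above the highest WT library (log2 fold change 0.81 ± 0.12, adjusted p = 0.0005103). On MitoGamide it was at 34.9, 82.2, 63.1, 57.4 and 63.6 CPM in Akita mice and 32.7, 33.6, 27.5, 21.5 and 30.8 CPM in WT mice, where replicate 1 of the Akita mice lay near the WT values (log2 fold change 1.08 ± 0.19, adjusted p = 0.004825). On water the values were 30.1, 33.0, 36.2, 56.9 and 29.7 CPM (Akita) against 28.1, 25.5, 14.7, 18.2 and 32.8 CPM (WT), and on MitoQ 31.3, 30.1, 30.4, 50.1 and 42.7 CPM (Akita) against 22.6, 24.6, 20.8, 33.7 and 28.6 CPM (WT). Both of these pairs of groups overlapped, with log2 fold changes of 0.64 (adjusted p = 0.5169) and 0.50 (adjusted p = 0.3544). Leaving out the low-coding libraries gave 0.50 (adjusted p = 0.4228) and 0.27 (adjusted p = 0.7371). The calls of Nqo1 on ethanol and on MitoGamide held in all 10 leave-one-out fits.

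Hmox1 (ENSMUSG00000005413.8, chr8:75093621-75100589), the haem oxygenase that is another classic NRF2 target, moved the other way on ethanol. It was at 13.7, 12.1, 11.02, 15.2 and 17.4 CPM in Akita mice and 23.3, 24.6, 27.9, 20.4 and 20.7 CPM in WT mice, without overlap (log2 fold change -0.73 ± 0.12, adjusted p = 0.001303). On MitoGamide it was at 18.1, 19.99, 16.7, 39.0 and 336 CPM in Akita mice and 20.1, 24.4, 16.03, 23.4 and 28.4 CPM in WT mice. The log2 fold change there of 1.94 (adjusted p = 0.1123) rested on replicate 5 of the Akita mice, without which it was 0.09 (adjusted p = 0.8173). On water it was at 11.4 to 25.8 CPM in Akita mice and 10.4 to 23.9 CPM in WT mice (-0.08, adjusted p = 0.9999), and on MitoQ at 18.3 to 36.9 CPM (Akita) against 15.4 to 22.2 CPM (WT) (0.55, adjusted p = 0.3163). With the low-coding libraries left out the log2 fold changes were 0.04 (adjusted p = 0.9319) and 0.63 (adjusted p = 0.3219). The difference of the diabetes effect between ethanol and water was itself not called (log2 difference -0.66, adjusted p = 1).

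**Figure D3:**
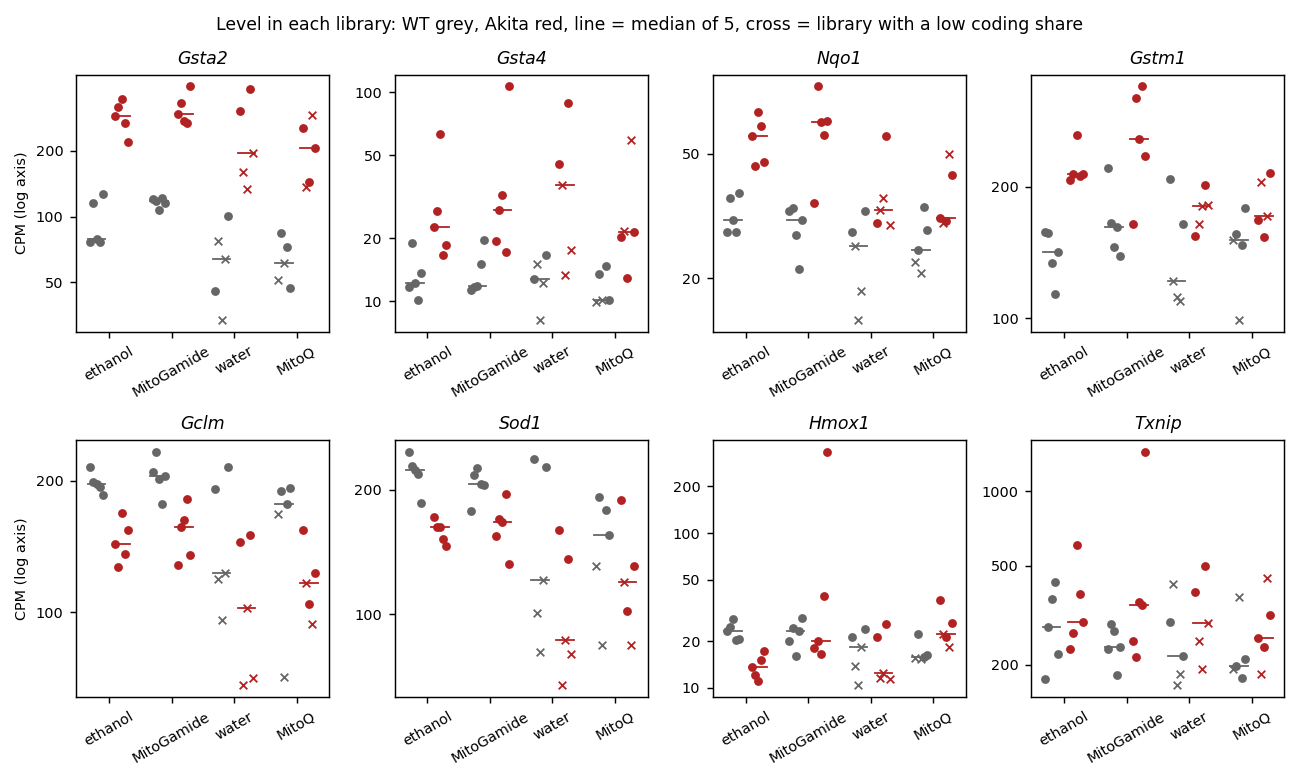
CPM of 8 members on log axes in every library, by treatment, with WT in grey, Akita in red, the median of 5 as a line and libraries of low coding share as crosses. Gsta2 shows 20 Akita libraries above all 20 WT libraries, and replicate 5 of Akita mice on MitoGamide stands alone for Hmox1 (336 CPM) and Txnip (1443 CPM).

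Neither of the regulators themselves passed the test within any arm. Nfe2l2 was at 57.1, 62.0, 72.8, 63.6 and 62.4 CPM in Akita mice and 54.7, 74.2, 63.7, 58.4 and 61.2 CPM in WT littermates on ethanol, which overlapped (log2 fold change 0.04 ± 0.09, adjusted p = 0.7989). Its log2 fold change was 0.20 on MitoGamide, 0.25 on water and 0.24 on MitoQ, none of them called, and on MitoGamide it was 0.12 (adjusted p = 0.3274) without replicate 5 of the Akita mice. On water its groups did not overlap, at 62.0, 65.0, 58.8, 73.1 and 61.7 CPM in Akita mice and 55.4, 57.6, 45.6, 53.9 and 56.4 CPM in WT mice (adjusted p = 0.7205). Its values without the low-coding libraries were 0.26 (adjusted p = 0.4052) on water and 0.20 (adjusted p = 0.7328) on MitoQ. Keap1 was at 23.3 to 27.5 CPM in Akita mice and 25.2 to 28.4 CPM in WT mice on ethanol (log2 fold change -0.09 ± 0.06, adjusted p = 0.3786). For Keap1 the log2 fold change was -0.34 on water, -0.11 on MitoQ and 0.02 on MitoGamide (0.13 without replicate 5 of the Akita mice). It was not called in any arm. Of the 11 members listed as defining NRF2 targets (Nqo1, Hmox1, Gclc, Gclm, Srxn1, Txnrd1, Slc7a11, Gsr, G6pdx, Pgd and Prdx1), 2 were higher and 3 lower on ethanol, and 4 were higher and 1 lower on MitoGamide (45.5% called in each, beside 16.4% and 14.3% of all genes). Of these MitoGamide calls, those of Gclc and Gclm were each lost in most leave-one-out fits. The list was chosen with earlier results of these data known. The median log2 fold change of the list was -0.04 on ethanol and 0.32 on MitoGamide (0.20 without replicate 5 of the Akita mice), beside -0.00 and 0.01 over all genes.

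For the first enzyme of glutathione synthesis, one subunit was lower and the other higher in Akita mice on MitoGamide. Gclm (ENSMUSG00000028124.15, chr3:122245557-122270732), the modifier subunit of glutamate-cysteine ligase, was at 143, 127, 169, 136 and 154 CPM in Akita mice and 215, 199, 196, 193 and 185 CPM in WT littermates on ethanol. Every Akita library was below every WT library (log2 fold change -0.42 ± 0.08, adjusted p = 0.002575). Under MitoGamide the values were 128, 156, 162, 181 and 135 CPM in Akita mice and 209, 233, 201, 177 and 205 CPM in WT mice, which overlapped by 1 library (log2 fold change -0.39 ± 0.11, adjusted p = 0.03577). This call was lost in 7 of 10 leave-one-out fits (adjusted p up to 0.0924) and with replicate number as a block. On water and on MitoQ the log2 fold changes were -0.47 (adjusted p = 0.8984) and -0.44 (adjusted p = 0.7055), of like size but with wide spread, and low-coding libraries were as low as 68.0 CPM in Akita mice and 70.9 CPM in WT mice. Without these libraries they were -0.48 (adjusted p = 0.1546) and -0.55 (adjusted p = 0.2207). Gclc, the catalytic subunit, was at 123, 167, 195, 171 and 162 CPM in Akita mice and 146, 118, 118, 126 and 123 CPM in WT littermates on MitoGamide (log2 fold change 0.41 ± 0.11, adjusted p = 0.03269), a call lost in 7 of 10 leave-one-out fits (adjusted p up to 0.0809) and with the block. On ethanol it was at 116 to 157 CPM (Akita) against 101 to 147 CPM (WT) (0.12, adjusted p = 0.5231). These were glutathione synthetase (Gss, -0.12, adjusted p = 0.2607), glutathione reductase (Gsr, -0.04, adjusted p = 0.6856) and the cystine importer Slc7a11 (-0.10, adjusted p = 0.8214). Gss lies opposite Acss2, which had a mean of 2690 counts beside 2483 for Gss.

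Among the superoxide dismutases, the cytosolic Sod1 (ENSMUSG00000022982.10, chr16:90220754-90226329) was lower in Akita mice. It was at 172, 163, 163, 152 and 147 CPM in Akita mice and 248, 228, 223, 218 and 186 CPM in WT littermates on ethanol, without overlap (log2 fold change -0.45 ± 0.08, adjusted p = 0.001412). The gene Scaf4, on the opposite strand, overlaps Sod1 with a mean of 455 counts beside 2623. On MitoGamide the values were 155, 170.0, 167, 195 and 133 CPM (Akita) against 178, 218, 226, 206 and 206 CPM (WT) (log2 fold change -0.30 ± 0.11, adjusted p = 0.0902). On water and MitoQ the log2 fold changes were -0.54 (adjusted p = 0.9158) and -0.25 (adjusted p = 0.9062), and without the low-coding libraries -0.67 (adjusted p = 0.08494) and -0.32 (adjusted p = 0.7427). The mitochondrial Sod2 was at 206 to 254 CPM in Akita mice and 225 to 254 CPM in WT littermates on ethanol (log2 fold change -0.03 ± 0.07, adjusted p = 0.7988). The extracellular Sod3 was at 197 to 281 CPM (Akita) against 193 to 286 CPM (WT) (log2 fold change -0.04 ± 0.13, adjusted p = 0.8737). Neither passed the test in any arm.

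Of catalase and the glutathione peroxidases, 2 of 5 were higher on ethanol and 1 on MitoGamide (beside 8.18% and 7.71% of all genes). Gpx4, which reduces phospholipid hydroperoxides in membranes, was at 388, 404, 400.3, 384 and 384 CPM in Akita mice and 253, 271, 284, 262 and 305 CPM in WT littermates on MitoGamide, without overlap (log2 fold change 0.54 ± 0.08, adjusted p = 0.001474). On ethanol the values were 419, 392, 364, 343 and 332 CPM (Akita) against 323, 319, 337, 318 and 280.3 CPM (WT) (log2 fold change 0.25 ± 0.08, adjusted p = 0.0431), and that call was lost in 7 of 10 leave-one-out fits (adjusted p up to 0.106). On water Gpx4 spread from 57.6 to 396 CPM in WT mice alone, with the low values in the low-coding libraries, and no difference was detectable (-0.23 (adjusted p = 0.9999), and -0.52 (adjusted p = 0.2287) without those libraries). On MitoQ the value was 0.40 (adjusted p = 0.8738), and 0.32 (adjusted p = 0.8336) without them. Gpx6 was at 12.2, 13.1, 13.6, 11.2 and 12.2 CPM in Akita mice and 10.8, 9.81, 8.96, 8.78 and 6.43 CPM in WT littermates on ethanol, without overlap (log2 fold change 0.49 ± 0.12, adjusted p = 0.01252). It had a log2 fold change of 0.39 (adjusted p = 0.07041) on MitoGamide, -0.38 on water and -0.06 on MitoQ, none of them called. The most abundant member, Gpx3, was at 11864, 12843, 12807, 9415 and 10500.1 CPM in Akita mice and 8865, 9492, 10608, 9551 and 9104 CPM in WT littermates on ethanol, where the groups overlapped (log2 fold change 0.29 ± 0.12, adjusted p = 0.1132), although DESeq2 called it (0.29, adjusted p = 0.01751). Gpx1 (-0.03, adjusted p = 0.8807) and catalase (Cat, -0.01, adjusted p = 0.9465) did not pass, and the log2 fold change of Cat lay between -0.01 and 0.04 in all 4 arms.

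Of the peroxiredoxins, which remove hydrogen peroxide through reactive cysteines, Prdx2 and Prdx3 were called higher on MitoGamide and Prdx1 lower on ethanol. With Srxn1 counted in the group, 1 of 7 genes was called on ethanol, and it was lower, beside 8.22% of all genes. On MitoGamide 3 of the 7 genes of this group were higher, beside 7.71% of all genes, although 1 of these calls, that of Prdx2, was mostly lost with a library left out. Srxn1, the sulfiredoxin that restores overoxidised peroxiredoxins, was at 43.3, 55.7, 48.9, 58.8 and 69.7 CPM in Akita mice and 35.8, 36.2, 40.1, 42.7 and 41.6 CPM in WT mice, without overlap (log2 fold change 0.52 ± 0.12, adjusted p = 0.01358). The mitochondrial Prdx3 was at 120.2, 124, 126, 128 and 141 CPM (Akita) against 96.0, 106, 100.4, 104 and 118 CPM (WT) (log2 fold change 0.32 ± 0.08, adjusted p = 0.02047), and Prdx2 at 102 to 113 CPM (Akita) against 75.7 to 97.2 CPM (WT) (log2 fold change 0.27 ± 0.08, adjusted p = 0.04209). Prdx2 kept its call in only 2 of 10 leave-one-out fits, and Prdx3 in 7. On ethanol the log2 fold changes were 0.08 (adjusted p = 0.702) for Srxn1, 0.11 (adjusted p = 0.2043) for Prdx3 and 0.10 (adjusted p = 0.3478) for Prdx2. Instead Prdx1 was lower on ethanol, at 449.8, 432, 413, 389 and 413 CPM in Akita mice and 488, 508, 509, 486 and 455 CPM in WT mice (log2 fold change -0.20 ± 0.06, adjusted p = 0.04553), a call kept in 2 of 10 such fits (adjusted p up to 0.0905) and lost with replicate number as a block. Its values of 0.04 on MitoGamide, -0.15 on water and 0.11 on MitoQ did not pass. Prdx4, Prdx5 and Prdx6 were not called in any arm.

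In the thioredoxin and glutaredoxin system, Glrx, which removes glutathione from proteins, was higher on ethanol and on MitoGamide. It was at 31.8, 33.5, 32.0, 34.0 and 27.1 CPM in Akita mice and 22.3, 23.1, 29.2, 24.2 and 26.4 CPM in WT littermates on ethanol (log2 fold change 0.35 ± 0.08, adjusted p = 0.01092). With MitoGamide, Glrx was at 33.1, 31.5, 26.2, 32.7 and 78.8 CPM (Akita) against 25.6, 21.1, 21.7, 22.3 and 23.8 CPM (WT), without overlap (log2 fold change 0.84 ± 0.25, adjusted p = 0.04161). Without replicate 5 of the Akita mice, the log2 fold change was 0.46 (adjusted p = 0.005431), which still passed, whereas leaving out any WT library or replicate 2 of the Akita mice lost the call (adjusted p up to 0.0915). Txnip, the thioredoxin-binding protein whose transcript follows glucose in many cell types, was at 232, 269, 606, 384 and 296 CPM in Akita mice and 176, 285, 368, 431 and 221 CPM in WT littermates on ethanol, with wide overlap (log2 fold change 0.29 ± 0.27, adjusted p = 0.5201). On MitoGamide it was at 248, 215, 358, 347 and 1443 CPM (Akita) against 232, 293, 274, 182 and 236 CPM (WT) (1.12, adjusted p = 0.1109), and 0.30 (adjusted p = 0.2275) without replicate 5. The thioredoxins Txn1 and Txn2, the reductases Txnrd1 and Txnrd2 and Glrx2 were not called in any arm.

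Of the NADPH sources, Pgd, the phosphogluconate dehydrogenase of the pentose phosphate pathway, was higher. It was at 74.6, 70.0, 59.3, 72.7 and 66.7 CPM in Akita mice and 61.1, 57.7, 56.9, 51.2 and 57.5 CPM in WT littermates on ethanol (log2 fold change 0.29 ± 0.07, adjusted p = 0.01051). On MitoGamide the values were 56.0, 81.3, 80.1, 76.1 and 64.0 CPM (Akita) against 49.9, 55.3, 49.9, 55.1 and 49.2 CPM (WT), without overlap (log2 fold change 0.50 ± 0.11, adjusted p = 0.01252). The log2 fold changes on water and MitoQ were -0.03 (adjusted p = 0.9999) and 0.14 (adjusted p = 0.8794), or -0.16 (adjusted p = 0.6412) and 0.10 (adjusted p = 0.9237) without the low-coding libraries. G6pdx, which precedes it in the pathway, was at 20.1 to 27.7 CPM (Akita) against 20.1 to 23.7 CPM (WT) on ethanol (0.07, adjusted p = 0.6474). Neither row of Nnt, the mitochondrial transhydrogenase of which C57BL/6J mice carry a deletion, was called in any arm. Of the methionine sulfoxide reductases, which repair oxidised methionine, Msrb1 was lower on ethanol, at 98.5, 97.5, 86.1, 93.0 and 78.2 CPM in Akita mice and 122, 107, 98.9, 113 and 102 CPM in WT mice (log2 fold change -0.24 ± 0.08, adjusted p = 0.0429), and its call was lost in 6 of 10 leave-one-out fits (adjusted p up to 0.106). The Msrb1 values of 0.21 on MitoGamide, -0.47 on water and -0.05 on MitoQ were not called, and the first was -0.09 (adjusted p = 0.609) without replicate 5 of the Akita mice, so that 1 library set its sign. Msra, Msrb2 and Msrb3 were not called in these comparisons.

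Over all 40 libraries, with treatment as a term, 11 rows were higher and 3 lower in Akita mice, beside 11.0% and 11.8% of the 17769 genes tested. The higher ones were Gsta2 (log2 fold change 1.66 ± 0.13, adjusted p = 3.291e-13), Gsta4 (1.38), Nqo1 (0.75), Gstm1 (0.49), Glrx (0.50), Gpx3 (0.35), Nfe2l2 (0.17), Gsta3, Gstm5, Pgd and Txnip. Gclm (log2 fold change -0.44 ± 0.10, adjusted p = 0.00123), Sod1 (-0.40) and Msrb2 (-0.22) were lower. All 14 were also called without the 10 low-coding libraries, where 17 rows passed (35.4%, near the 30.3% of all genes called in that fit). In the 20 libraries of mice on ethanol or MitoGamide alone, 21 rows passed (43.8%, beside 31.2% of all genes). In the fit of all 40, the rows called in either direction were 29.2%, beside 22.8% of all genes. With only genes of at least 10 counts in every library, 29.8% of the rows were called, near the 27.3% of all genes. Txnip was lost with replicate number as a block. Txnip and Gstm5 were lost in 20 and 19 of 40 leave-one-out fits (adjusted p up to 0.105 and 0.0748), Txnip among them without replicate 5 of Akita mice on MitoGamide (0.32). Nfe2l2 kept its call in all 40 of these fits. In the ethanol and MitoGamide libraries alone, 2 of the 14 lost their call, Nfe2l2 (0.13, adjusted p = 0.1588) and Txnip (0.71, adjusted p = 0.07114). With no filter on low counts 7 of the 14 lost it, namely Gstm5, Gpx3, Sod1, Msrb2, Gsta3, Pgd and Txnip (adjusted p from 0.05194 for Sod1 to 0.1144 for Gstm5).

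Across the arms, 22 of the 48 rows had the same sign in all 4, 15 higher and 7 lower, a share near the background of 40% (6560 of the 16406 genes tested in all arms). On ethanol and on MitoGamide, 9 rows were called in the same direction, beside 7.71% of these genes, and 1 row, Gsta2, was called in all 4 arms, beside 0.244%. The 9 were Gsta2, Gsta4, Gstm1, Gstm5, Nqo1, Glrx, Pgd, Gpx4 and Gclm. No member was called for a difference of the diabetes effect between the ethanol and water vehicles, as was no gene of 18050 (0%), with 0 rows and 767 genes at an unadjusted p under 0.05, and 0 rows and 2 genes called by DESeq2.

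The next comparisons asked whether either mitochondria-targeted drug shifted these genes. All their libraries, of drug and of vehicle, are also those of the diabetes comparisons. MitoGamide changed 1 of the 48 rows in Akita mice with edgeR's quasi-likelihood test. The row was higher, beside 0.833% of all 17051 genes tested that were higher and 0.422% that were lower. In both directions together the share of rows called was 2.08%, near the 1.26% of all genes. It was Msrb3 (ENSMUSG00000051236.13, chr10:120781096-120899101), a methionine sulfoxide reductase of the endoplasmic reticulum and mitochondria. Msrb3 was at 8.87, 10.4, 9.23, 9.19 and 10.9 CPM in Akita mice on MitoGamide and 6.40, 6.13, 6.29, 5.38 and 6.00 CPM in Akita mice on ethanol, without overlap (log2 fold change 0.69 ± 0.10, adjusted p = 0.02605). The call was lost in 6 of 10 leave-one-out fits (each ethanol replicate and replicate 2 of the MitoGamide group, adjusted p up to 0.0755), while the log2 fold change stayed between 0.64 and 0.73. The call was also lost with replicate number as a block, where no gene of 17051 was called. Markers of fibroblasts and smooth muscle summed to 165 to 228 CPM on MitoGamide and 124 to 159.9 CPM on ethanol in these mice, without overlap, and those of endothelium to 361 to 559 and 289 to 338 CPM, and their part in the change of Msrb3 was not tested.

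Other members had values that did not pass. DESeq2 called 4 rows in this comparison (8.51% of those it gave an adjusted p, near the 5.99% of all genes it called), namely Msrb3, Gstm5 (0.34, adjusted p = 0.01401), Nfe2l2 (0.36, adjusted p = 0.02256) and Prdx1 (0.29, adjusted p = 0.00105). In edgeR the log2 fold changes were 0.34 (adjusted p = 0.06927) for Gstm5, 0.35 (adjusted p = 0.07664) for Nfe2l2 and 0.29 (adjusted p = 0.07155) for Prdx1. Nfe2l2 was at 74.4, 73.3, 74.7, 82.7 and 99.9 CPM on MitoGamide beside 57.1, 62.0, 72.8, 63.6 and 62.4 CPM on ethanol, so that all MitoGamide libraries lay above all vehicle libraries, replicate 5 the furthest. Hmox1 had the largest log2 fold change, 2.60 (adjusted p = 0.1074), which was 0.77 (adjusted p = 0.07562) without replicate 5. Of members called on ethanol, the log2 fold changes with MitoGamide were 0.12 (adjusted p = 0.6129) for Gsta2, 0.45 (adjusted p = 0.6464) for Gsta4 (-0.26 (adjusted p = 0.6891) without replicate 5, so that the sign turned), 0.26 (adjusted p = 0.4082) for Gstm1, 0.12 (adjusted p = 0.7441) for Nqo1, 0.08 (adjusted p = 0.7387) for Gclm and 0.05 (adjusted p = 0.801) for Sod1. Without replicate 5 they were 0.04 (adjusted p = 0.8674) for Gsta2, 0.13 (adjusted p = 0.5049) for Gclm and 0.13 (adjusted p = 0.3441) for Sod1, none of which passed either. Over the list, 39 of the 48 values were above 0 (36 without replicate 5), beside 8460 of 17051 genes, with a median log2 fold change of 0.07 beside -0.00 over all genes.

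In WT mice no member passed for MitoGamide, nor did any gene of 17395 (0%) with edgeR, and 7 rows had an unadjusted p under 0.05, beside 1841 of all genes, while DESeq2 called 1 (beside 0.420% of all genes), Txn1 (-0.20, adjusted p = 0.04801). Txn1 was at 97.3 to 111 CPM on MitoGamide and 115 to 122 CPM on ethanol without overlap (log2 fold change -0.21 ± 0.05, adjusted p = 0.3099). The difference of the MitoGamide effect between Akita and WT mice was called for no member and no gene of 17256 (0%), with 5 rows and 1435 genes at an unadjusted p under 0.05 and none of the rows called by DESeq2.

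No member passed for MitoQ in Akita mice (no gene of 18496, 0%) or in WT mice (no gene of 17881, 0%) by edgeR, and DESeq2 called none of the rows in either. At an unadjusted p under 0.05 there was 1 row in Akita mice, Hmox1 (beside 363 of all genes), and 0 in WT mice (beside 575). Hmox1 was at 36.9, 22.2, 21.2, 18.3 and 26.3 CPM on MitoQ and 21.3, 11.6, 12.4, 25.8 and 11.4 CPM on water in Akita mice, which overlapped (log2 fold change 0.59 ± 0.27, adjusted p = 0.9993, and 0.27 (adjusted p = 0.9411) without the low-coding libraries). Gsta2 had a log2 fold change of -0.19 (adjusted p = 0.9993) in Akita mice and -0.03 (adjusted p = 1) in WT mice, and Nqo1 of -0.01 (adjusted p = 0.9993) and 0.13 (adjusted p = 1). Standard errors in these comparisons were wide, for example 0.24 for Gclm in Akita mice beside 0.12 with MitoGamide, so that small shifts could not be seen. Without the low-coding libraries, the log2 fold change with MitoQ in Akita mice was -1.88 (adjusted p = 0.119) for Gsta4, -0.77 (adjusted p = 0.8705) for Gsta2 and -0.31 (adjusted p = 0.9411) for Nqo1, none of which passed, and these values rest on 3 MitoQ and 2 water libraries. A difference of the MitoQ effect between genotypes was called for no member and no gene of 18225 (0%) by edgeR, with 0 rows and 207 genes at an unadjusted p under 0.05, and 0 of either called by DESeq2.

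**Figure D4:**
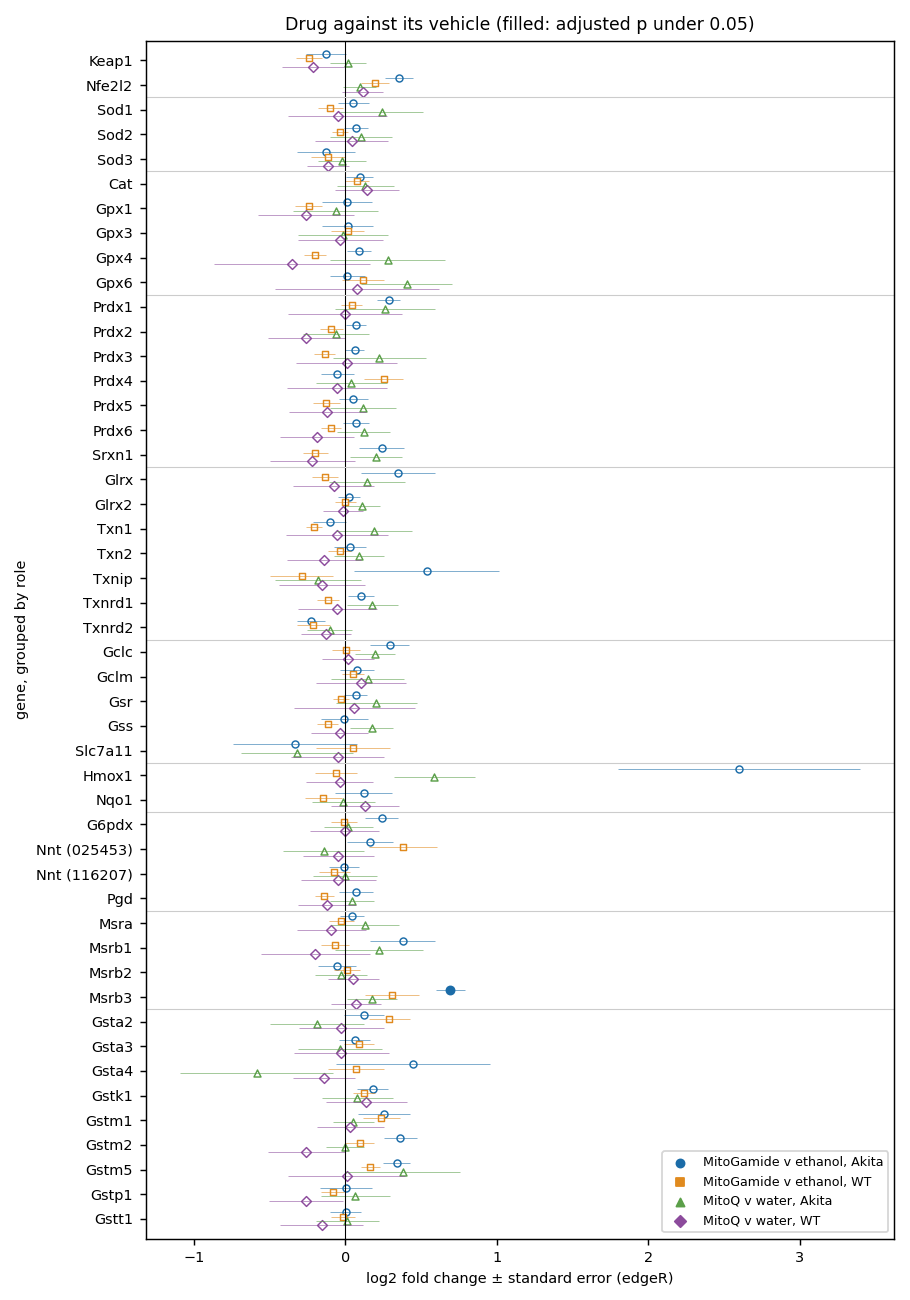
Log2 fold change of each member row with MitoGamide against ethanol and with MitoQ against water in Akita and WT mice (x axis, with standard error from edgeR), grouped by role. Msrb3 with MitoGamide in Akita mice (0.69) is the only filled symbol, and Hmox1 with MitoGamide (2.60) has the widest bar.

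A list of 70 further genes of the same pathways was also chosen with earlier results of these data known. Its shares of calls are therefore not independent of those results. Of the 70 genes, 63 could be tested on ethanol, where 22 were higher and 6 lower in Akita mice (44.4%, beside 16.4% of all genes). The 3 higher ones with the smallest p were Ephx1, the microsomal epoxide hydrolase (log2 fold change 1.52, standard error 0.12, adjusted p = 6.8e-06), and the metal-binding metallothioneins Mt1 (1.68) and Mt2 (1.45). The 3 lower ones were Selenop, the selenium carrier of plasma (-1.06), Me1, the malic enzyme that supplies NADPH (-0.90), and Ggct, which breaks down gamma-glutamyl peptides (-1.01). On MitoGamide, 23 of 62 were higher and 5 lower (45.2%, beside 14.3%), with the transketolase gene Tkt at 0.61, Ephx1 at 1.79, the carbonyl reductase Cbr1 at 1.85, Ggct at -1.10 and Mafg at -0.41. On water, 4 were higher (Ephx1, Mt1, Mt2 and the exporter Abcc4) and 1, Ggct, was lower (7.94%, beside 0.552%), and on MitoQ 4 were higher, Ephx1, Mt1 and Mt2 among them (6.45%, beside 0.557%). Ephx1, an NRF2 target in many tissues, thus rose in all 4 arms, as Gsta2 did, whereas Me1, another, fell on ethanol and on MitoGamide (-0.84) and had values of -0.90 on water and -0.62 on MitoQ that did not pass. With MitoGamide in Akita mice, 1 of 63 was called, the small MAF protein gene Mafg (-0.49, adjusted p = 0.02985), a share of 1.59% near the 1.26% of all genes. No gene of any kind was called in this comparison with replicate number as a block. The same held without replicate 1 or without replicate 2 of the Akita mice on ethanol, so the call of Mafg was lost in each of these fits.

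The genes most like 3 of the members in their log2 CPM over the 40 libraries were found among 17212 genes. For Nqo1 they were Akr1c13 (Pearson correlation 0.881), Aldh1a1 (0.878) and Reep6 (0.863). For Gclc they were Asb8 (0.733), Cldn16 (0.728) and Efemp1 (0.718), and for Hmox1 they were Ppp2r2d (0.829), Cd93 (0.800) and Dync1i2 (0.796). The points share groups and library quality, and for Hmox1 also a single high library, so the values are a description.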

How the data were processed

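Renal cortex RNA of 40 mice was sequenced from rRNA-depleted total RNA. The authors trimmed reads with Skewer, quantified transcripts on the GRCm38 mouse transcriptome with kallisto 0.46.1 and deposited 1 table of estimated counts per gene, worked on in R 4.0.2 per the labels. The deposited counts are not normalized and were rounded to whole numbers for testing. All columns were mapped to samples by their titles (0 were left over). The members and lists were chosen with earlier results of these data known.

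The libraries of each comparison were analysed by themselves in edgeR 4.0.16 (quasi-likelihood test, TMM scaling, limma 3.58.1, R 4.3.3), keeping genes whose mean reached 10 counts, with Benjamini-Hochberg adjustment over all genes tested and a threshold of 0.05. By rule, up to 10 called members per comparison with the smallest p, the regulators and the defining NRF2 targets were to be named, with 3 raised and 3 lowered genes of the other pathway list. Further members were named after their values were seen. Alternatives were DESeq2 1.42.0, RLE scaling, 2 other filters, a replicate block, 1 fit of all 40 libraries and leaving out each library. Leaving out the 10 low-coding libraries, and using the ethanol and MitoGamide libraries alone, were chosen after seeing the data. Scripts were tested on simulated data. No 2 libraries of a group agreed within sampling noise (chi-square per degree of freedom at least 8.88). Depth was 9106654 to 24321424 counts per library. Each library came from an individual animal.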

Additional observations from a re-analysis of the deposited data

Results flagged for a closer look

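All 48 rows were checked in each of the 8 groups for a library far from the other 4 on the log2 CPM scale (Dixon's test, gap over range above 0.71). Of 384 groups tested, 25 were flagged, and chance alone flags about 1 in 20, or 19.2 here. Replicate 5 of Akita mice on MitoGamide stood far above its group for Hmox1 (336 CPM, others 16.7 to 39.0), Txnip (1443 CPM, others 215 to 358), Glrx (78.8 CPM, others 26.2 to 33.1) and Gpx3 (16087 CPM, others 10023 to 11020), and far below it for Gss (93.2 CPM, others 159 to 185). In the same group, replicate 1 was far below the others for Gpx6 (9.23 CPM, all others at least 12.5).

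Replicate 3 of WT mice on MitoQ, the library with the lowest coding share, was far below its group for Gclm (70.9 CPM, others 168 to 192), Gss (105 CPM, others 155 to 173), Gstt1 (21.6 CPM, others 37.2 to 45.3), Prdx2 (38.5 CPM, others 68.9 to 82.4), Prdx6 (40.4 CPM, others 77.2 to 92.1) and Txn2 (39.8 CPM, others 68.6 to 83.0), and far above it for Txnip (374 CPM, others 177 to 211). Nfe2l2 was far below in replicate 3 of WT mice on water (45.6 CPM, others 53.9 to 57.6), also a low-coding library. Among the other libraries of mice on MitoQ, replicate 1 of Akita mice was far above for Prdx2 (111 CPM, others 62.9 to 72.1) and Sod2 (244 CPM, others 180.2 to 193). In WT mice on MitoQ, replicate 2 was far above for Hmox1 (22.2 CPM, others 15.4 to 16.4) and replicate 4 far below for Sod3 (201 CPM, others 249.8 to 258). Msrb2 was far above in replicate 1 of Akita mice on water (12.6 CPM, others 8.82 to 9.13).

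On ethanol, replicate 3 of Akita mice was far above for Gstm1 (263 CPM, others 207 to 214), replicate 5 of Akita mice far below for Prdx6 (95.5 CPM, others 101 to 102), and replicate 2 of WT mice far above for Gstm2 (15.5 CPM, others 11.6 to 12.5). In WT mice on MitoGamide, replicate 1 was far below for Prdx2 (75.7 CPM, others 90.6 to 97.2) and Prdx4 (8.50 CPM, others 12.2 to 12.8), and replicate 3 far above for Gstt1 (57.5 CPM, others 45.4 to 48.0).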

How the results depend on the processing

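Each count of member rows is followed by the share of all genes called in the same fit. The number of rows called on ethanol (15) was 3 with all 40 libraries in 1 fit (4.75% of all genes) and 10 to 14 when 1 library was left out (12.2% to 15.8%). On MitoGamide (14) it was 7 in 1 fit of all libraries (11.3%) and 6 to 15 with 1 library left out (7.44% to 16.9%). On water (1) it was 2 with DESeq2 (1.93%), 0 with RLE scaling (0.530%), 2 in 1 fit of all libraries (3.08%), 2 without the low-coding libraries (1.75%) and 0 to 1 with 1 library left out (0.177% to 0.518%). On MitoQ (1) it was 2 with DESeq2 (2.29%). Over all arms (14) it was 7 with no filter on low counts (9.18%) and 12 to 16 with 1 library left out (21.3% to 24.6%). For MitoGamide in Akita mice (1) it was 4 with DESeq2 (5.99%), 2 in 1 fit of all libraries (0.18%) and 0 to 1 with 1 library left out (0% to 4.67%), and in WT mice (0) it was 1 with DESeq2 (0.420%). The cause of these shifts was not tested. No count reversed in direction.

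With the replicate block, 14 rows were called on ethanol (29.2%, beside 14.5% of all genes), 0 on water (beside 0.175%), 12 on MitoGamide (25%, beside 13.7%), 1 on MitoQ (2.08%, beside 0.265%), 13 over all arms (27.1%, near the 22.7% of all genes) and 0 for MitoGamide in Akita mice (0% of all genes). The block lost the calls of Gsta2 on water (adjusted p = 0.0721), Prdx1 on ethanol (0.07697), Gclm (0.06084), Gclc (0.07992) and Gstm1 (0.06369) on MitoGamide, Txnip over all arms (0.08541) and, with MitoGamide in Akita mice, Msrb3 (0.1076) and the pathway gene Mafg. Equal replicate numbers are not said to mark a shared animal or batch. Of 40 same-numbered pairs, 11 had a correlation of deviations above 0.1, and 0 of the 8 comparisons of 2 groups had this in every pair. Single pairs ranged from -0.534 (replicate 5, Akita and WT on water) to 0.738 (replicate 1, Akita on MitoQ and on water). With such spread the check cannot tell whether same-numbered samples share more than a number, and the labels do not say. With 5 mice a group and the uneven coding share of the water and MitoQ libraries, small changes in them were not detectable.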
